A study of Mus musculus with 12 samples.

Results

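Livers of mice on the HFCF diet were set against livers of mice on normal chow after both 1 month and 3 months, and the account below concerns the diet effect that both months share. For each gene this effect is the mean of the 2 monthly HFCF minus chow differences on the log2 scale, fitted over all 12 of 12 libraries with month in the model. Of 14725 genes tested, 2809 (19.1%) were called for it at a Benjamini-Hochberg adjusted p under 0.05 in edgeR's quasi-likelihood test, 1589 higher (10.8%) and 1220 lower (8.29%) on HFCF. A gene was counted as stable when it was called, when its effects at 1 and at 3 months had the same sign, when the smaller of the 2 effects was at least 0.5 of the larger, and when the HFCF and chow libraries did not overlap at either month, which held in 1 direction for 1280 genes (8.69%). The rule kept 876 genes (5.95% of those tested), of which 465 were higher and 411 lower. Stability was read from the same values as the call and has no test of its own, so the separation of libraries given below is a description.

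All animals were wild-type C57BL/6 mice and the tissue was whole liver. The 4 groups were HFCF for 1 month, chow for 1 month, HFCF for 3 months and chow for 3 months, with 3 biological replicates each per the series' design text. The labels do not spell out HFCF, whose name is kept as they give it. Mice were 3 months old after 1 month and 6 months old after 3 months of feeding, so time on the diet and age move together and cannot be told apart. As listed, these ages also put the start of feeding at a later age in the 3-month groups. The libraries held 13733485 to 20277572 counts, and levels are given as CPM, counts scaled to a common library size with trimmed means (TMM), with no correction for gene length, so that levels are compared between groups and not between genes. Alb, the main plasma protein made by hepatocytes, had 34480 to 56525 CPM in HFCF and 51123 to 59799 CPM in chow livers at 1 month, and 36058 to 44932 CPM in HFCF and 52394 to 53971 CPM in chow livers at 3 months. That is the level of a liver sample, and Alb was not called for the shared effect (−0.42 ± 0.15 log2, edgeR adjusted p = 0.0657). A pair of libraries stood apart from their groups. On the first principal component (46.1% of the variance) the third HFCF library at 3 months scored 22.9, against 47.6 and 50.5 for the other two. On the second (13.8%) the first chow library at 1 month scored −24.0, against −0.17 and −6.07 for the other two. Several results that rest on either library are given below with and without them. With both left out, Alb was called lower (−0.46, edgeR adjusted p = 0.0422), as it was with all 12 libraries in DESeq2's Wald test and in limma-voom. In a bulk sample, fewer cells of a type and less RNA per cell cannot be told apart.

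The liver makes cholesterol, takes it up from lipoproteins, and disposes of it as bile acids or by pumping it into bile. When cells hold enough sterol, the transcription factor SREBP2 stays in the endoplasmic reticulum and the genes of cholesterol synthesis are transcribed less, while oxysterols activate the nuclear receptor LXR, which induces sterol exporters. Fatty acids are ligands of a further nuclear receptor, PPAR-alpha, which drives genes of fatty acid binding and oxidation in hepatocytes.

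The stable effects were of moderate size. Among the 465 stable genes that were higher, the median log2 difference was 0.63 for the shared effect, 0.59 at 1 month and 0.68 at 3 months. Among the 411 that were lower, it was −0.43, −0.42 at 1 month and −0.47 at 3 months. A shared effect of at least 1 log2 unit was found in 169 stable genes, 108 higher and 61 lower. The monthly effect was larger at 3 months in 564 stable genes and at 1 month in 312, and the median ratio of the smaller to the larger effect was 0.741. No stable gene was called for the difference between the months, a comparison in which edgeR called 6 of all genes (0.0407%), 3 in each direction (0.0204%), where DESeq2 called 367 at an adjusted p under 0.05. At an unadjusted p under 0.05, edgeR had 2296 genes for this difference. A call that is missed does not show equal effects. The 95% interval of the difference lay within ±1 log2 unit for 667 of the 876 genes (76.1%). Since the rule chose genes with similar effects and this bound exceeds the median effects above, that count does not show similar size. Averaging over the months brought in genes that neither month called alone, 248 of the 876. In the separate comparisons 192 stable genes were called at 1 month and 605 at 3 months, with 169 called at both. A threshold of 0.05 was set here on the adjusted p in the authors' deposited table. Of the 876 stable genes, 353 pass it at 1 month, 616 at 3 months and 301 at both. Of all 14725 genes tested, 628, 2971 and 342 pass it in the authors' deposited table in the same order, and those calls come from the same libraries.

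**Figure D1:**
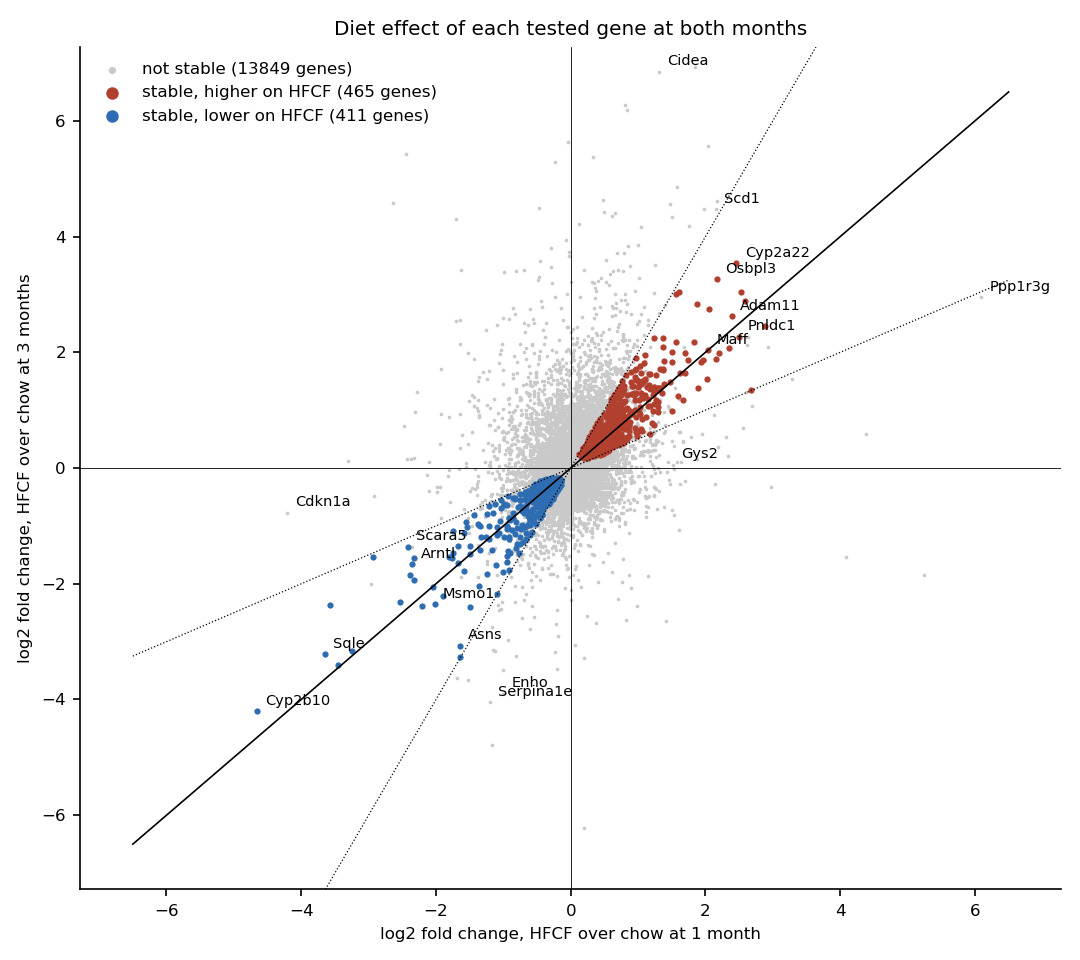
Log2 difference of HFCF minus chow at 1 month (x axis) and at 3 months (y axis) for each gene tested. Red points are the 465 stable genes that were higher and blue points the 411 that were lower on HFCF, grey points are the remaining 13849 genes, the solid line marks equal effects, and the dotted lines mark a 3-month effect of 2 times and of 0.5 times the 1-month effect, between which the stable genes lie by rule.

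The 2 monthly comparisons share no library, but both come from 1 fit whose estimate of each gene's spread uses all 12 libraries. Each can be read in the other, though calls at the 2 months are not independent. Of the 301 genes called at 1 month (2.04% of those tested), 280 (93%) had the same sign at 3 months, and 178 (59.1%) were also called there in the same direction, where 19% of all genes were called. The 153 genes called higher at 1 month had a median log2 difference of 0.75 there and 0.55 at 3 months. The 148 called lower had a median of −0.78 at 1 month and −0.53 at 3 months, and 3 of them were called in the opposite direction at 3 months. Conversely, 2240 of the 2802 genes called at 3 months (79.9%) had the same sign at 1 month, and 178 (6.35%) were called there, where 2.04% of all genes were called. Across all 14725 genes, which are not independent replicates, the 2 monthly log2 differences had a Pearson r of 0.365 and the same sign in 64.1%. Among genes with at least 5 CPM the r was 0.483.

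Genes of cholesterol synthesis were among the stable falls. Of 24 tested genes of the pathway and its SREBP2-regulated partners, 19 were lower, 0 were higher and 14 were stable, with a median shared effect of −1.01, beside 0.00 over all genes. The stable members ran through the pathway. They included the kinases Mvk (−1.05) and Pmvk (−0.91), the decarboxylase Mvd (−2.12), the isomerase Idi1 (−3.44), the farnesyl diphosphate synthase Fdps (−2.13) and the squalene epoxidase Sqle (−3.43). Later steps were represented by Cyp51 (−2.06), Tm7sf2 (−1.35), Msmo1 (−2.18), Nsdhl (−1.52) and Dhcr7 (−1.30), the last of which makes cholesterol from its direct precursor. Srebf2 (−0.97), which encodes SREBP2, was stable as well, all values being log2 shared effects. In the separate comparisons, 14 of the 24 were called lower at 1 month, beside 1.01% of all genes, and 18 at 3 months, beside 7.5%. Acat2 (0.14), Fdft1 (−0.44) and Sc5d (0.01) were among those not called. The counts of Fdps, Cyp51, Tm7sf2 and Mvd are less certain, since each gene overlaps another annotated gene and the counted strand is not given in the sources used here. Idi1 and Mvd were at low levels, with means of 0.904 and 3.47 CPM over the 12 libraries.

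Sqle (chr15:59315077-59331192, mm10) had 1.57, 2.8 and 2.12 CPM in HFCF livers at 1 month, against 11.7, 33.7 and 35.4 CPM in chow livers. At 3 months it had 3.09, 2.62 and 2.41 CPM in HFCF livers and 24.6, 23.1 and 28 CPM in chow livers. All HFCF libraries lay under the lowest chow library, and the first chow library at 1 month was the lowest chow value. The shared effect was −3.43 ± 0.28, a 10.8-fold lower level (edgeR adjusted p = 9.88e-05), with −3.65 at 1 month and −3.21 at 3 months. Msmo1 (chr8:64718139-64733792), a sterol methyl oxidase, had 20.2, 27.8 and 19.5 CPM in HFCF livers against 45.5, 118 and 110 CPM in chow livers at 1 month. At 3 months the values were 21.1, 21.8 and 18.5 CPM on HFCF and 101, 83.4 and 128 CPM on chow. The HFCF libraries again stayed under every chow library (−2.18 ± 0.23, edgeR adjusted p = 0.000426). Srebf2 had 9, 12.7 and 10.2 CPM in HFCF and 18.6, 18.1 and 21.5 CPM in chow livers at 1 month, and 11.1, 9.56 and 8.97 CPM in HFCF and 20.4, 19.7 and 22.6 CPM in chow livers at 3 months. Its fall was smaller but tight, with no overlap (−0.97 ± 0.10, edgeR adjusted p = 6.5e-05), and the interval of the difference between months ran from −0.61 to 0.21.

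The first chow library at 1 month, which stood apart above, was also low for this group. As a median over the 24 genes relative to the mean of the 6 chow libraries, the HFCF libraries lay between −1.12 and −0.72 log2 units, and the chow libraries at 1 month at −0.50, 0.02 and 0.11. Without that library and the third HFCF library at 3 months, 20 of the 24 genes were lower and 18 were stable. Leaving out each library in turn gave 17 to 21 lower and 14 to 18 stable.

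**Figure D2:**
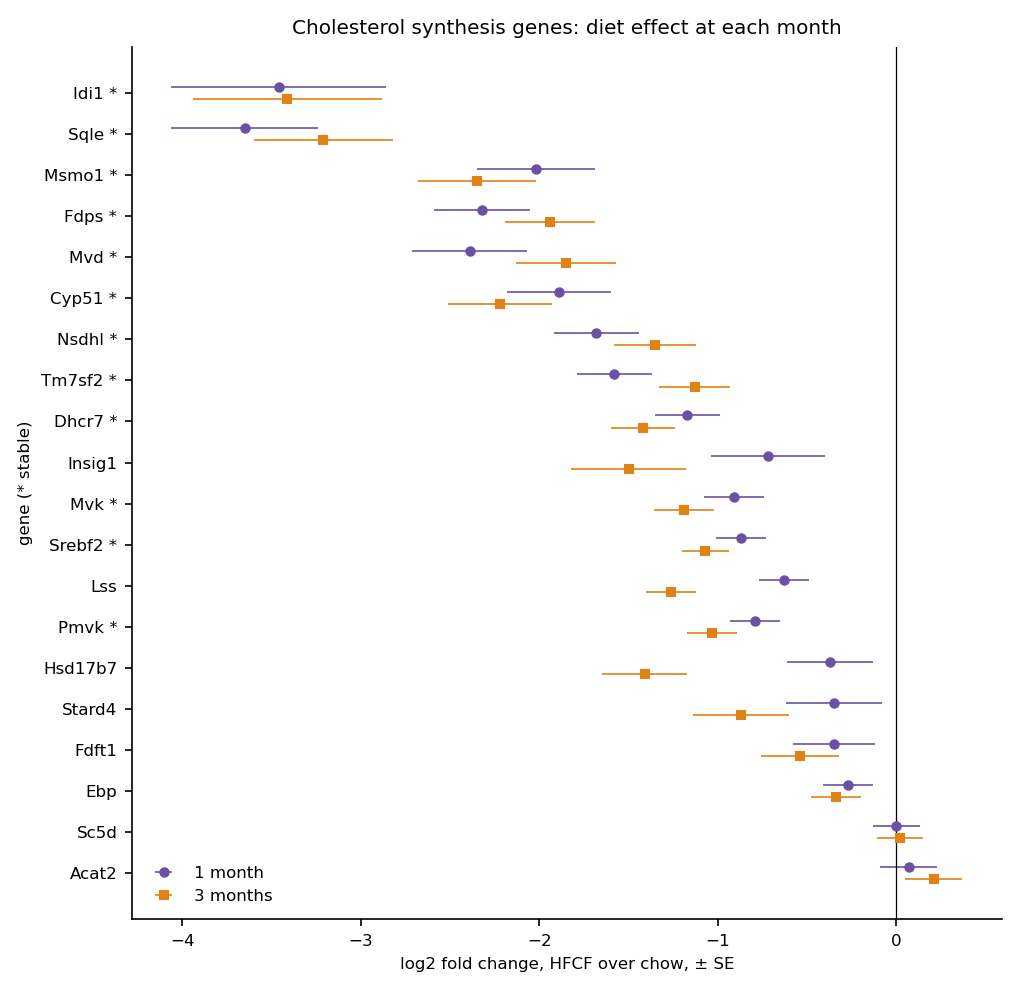
Log2 difference of HFCF minus chow for 20 of the 24 tested genes of cholesterol synthesis and SREBP2 regulation, with circles for 1 month, squares for 3 months and bars for 1 standard error; an asterisk marks the 12 stable genes among them. From Idi1 at −3.44 to Pmvk at −0.91, the circle and square of each stable gene lie close together on the lower side.

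The stretch of 250 bases before the annotated start was available from RefSeq (build GRCm38.p6) for 10 of the 14 stable sterol genes and for 10551 of the 14725 genes tested. Genes under SREBP2 commonly also bind the factor NF-Y at CCAAT boxes. The letters CCAAT, on either strand, were found in all 10 stable sterol genes with an entry and in 5 of 6 other genes of the list, beside 40.1% of all genes with an entry, 41.5% of the stable genes that were higher and 44.3% of those that were lower. The sterol regulatory element letters TCACNCCAC were found in 0 of the 10, beside 1.29% of all genes, which says only that these letters are not in these windows. The windows of Msmo1 (chr8:64733579-64733828, minus strand, 3 matches), Cyp51 (chr5:4104698-4104947, minus strand, 1 match), Nsdhl (chrX:72918271-72918520, plus strand, 2 matches) and Mvd (chr8:122443423-122443672, minus strand, 2 matches) are shown because these genes are stable falls with one or several matches. Each is written 5′ to 3′ on the gene's strand, and capitals mark CCAAT or its reverse complement ATTGG. In Msmo1 the matches begin 160, 96 and 55 bases before the start, counted as −160, −96 and −55. A match is a description of letters and not a measured binding site.
Msmo1: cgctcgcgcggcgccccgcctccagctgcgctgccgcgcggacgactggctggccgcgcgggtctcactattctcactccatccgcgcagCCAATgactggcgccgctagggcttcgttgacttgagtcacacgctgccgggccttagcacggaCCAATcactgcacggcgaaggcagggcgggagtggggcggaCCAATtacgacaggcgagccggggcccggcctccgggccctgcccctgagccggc
Cyp51: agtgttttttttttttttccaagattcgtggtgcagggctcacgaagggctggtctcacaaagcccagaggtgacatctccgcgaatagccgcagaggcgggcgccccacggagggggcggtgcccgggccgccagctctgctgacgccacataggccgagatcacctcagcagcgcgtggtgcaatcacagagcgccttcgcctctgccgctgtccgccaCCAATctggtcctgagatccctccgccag
Nsdhl: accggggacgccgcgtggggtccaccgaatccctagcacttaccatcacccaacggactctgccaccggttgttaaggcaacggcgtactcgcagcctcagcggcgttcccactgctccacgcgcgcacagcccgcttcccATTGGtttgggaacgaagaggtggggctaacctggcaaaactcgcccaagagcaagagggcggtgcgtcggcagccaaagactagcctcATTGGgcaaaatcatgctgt
Mvd: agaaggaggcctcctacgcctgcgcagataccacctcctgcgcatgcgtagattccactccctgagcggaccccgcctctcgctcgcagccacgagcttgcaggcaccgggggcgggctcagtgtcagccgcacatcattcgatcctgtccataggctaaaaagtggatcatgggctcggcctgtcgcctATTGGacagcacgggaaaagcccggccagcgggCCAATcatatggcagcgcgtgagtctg

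Sterol exporters were among the rises. Of 11 tested LXR targets and efflux genes 8 were higher and 0 lower, 4 of them stable, with a median shared effect of 0.49. Abcg5 and Abcg8 encode the paired subunits of the transporter that secretes sterols into bile, and the genes lie head to head on chromosome 17 (chr17:84658234-84683011, minus strand, and chr17:84676302-84700333, plus strand) in these annotations. RefSeq gives 2 starts for Abcg8, of which one lies 109 bases from that of Abcg5 and the other inside Abcg5. Abcg5 had 146, 171 and 138 CPM in HFCF livers and 55, 64.6 and 58.8 CPM in chow livers at 1 month. The 3-month levels were 180, 175 and 207 CPM in HFCF and 98.6, 65.8 and 64.2 CPM in chow livers. The groups did not overlap, and the 1-month and 3-month effects were 1.35 and 1.30 (shared 1.32 ± 0.11, edgeR adjusted p = 2.46e-05, interval of the difference −0.51 to 0.40). Abcg8 had 175, 202 and 171 CPM in HFCF and 87.7, 90.9 and 89.8 CPM in chow livers at 1 month, and 183, 172 and 207 CPM in HFCF and 119, 86.6 and 65.4 CPM in chow livers at 3 months. Its groups were likewise apart (1.04 ± 0.12, edgeR adjusted p = 0.000149). The stable set also held Abca1 (0.28), the exporter that loads apolipoprotein A-I, and Lpcat3 (0.53), which builds polyunsaturated phospholipids. Abcg1 (1.03), Pltp (0.49), Soat2 (0.35) and Srebf1 (1.44), which encodes the lipogenic SREBP1, rose without meeting the stable rule. Nr1h3 (0.16), which encodes LXR-alpha, Mylip (0.09) and Scarb1 (0.18) were not called. Reads of Abcg5 and Abcg8 where their annotations overlap cannot be assigned with certainty.

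Some fatty acid genes regulated by PPAR-alpha rose at both months. Of 27 tested, 10 were higher and 1 lower, and 8 were stable, all higher, beside 3.16% of all genes stable and higher; the median was 0.24. Leaving out each library in turn gave 6 to 11 higher and 4 to 11 stable rises, with 4 without the second chow library at 3 months and 5 without the third chow library at 1 month or the second HFCF library at 3 months. Ppara itself rose (0.64), as did Acaa1b (1.36), a peroxisomal thiolase, Acads (0.26), Acot2 (1.28), Cpt1b (1.23) and the pantetheinase Vnn1 (1.54). Fabp1, the main fatty acid binding protein of hepatocytes, had 6019, 4096 and 3048 CPM in HFCF and 1636, 2089 and 1716 CPM in chow livers at 1 month. The corresponding 3-month levels were 4700, 4516 and 4984 CPM in HFCF and 1360, 2152 and 2794 CPM in chow livers. All HFCF libraries lay above all chow libraries (1.22 ± 0.19, edgeR adjusted p = 0.000969). Fabp2 (chr3:122895072-122899506), best known as the intestinal fatty acid binding protein, was among the genes with the smallest p. It had 294, 220 and 275 CPM in HFCF and 98, 118 and 110 CPM in chow livers at 1 month, and 217, 244 and 256 CPM in HFCF and 76, 102 and 98.6 CPM in chow livers at 3 months. Its groups were far apart, with effects of 1.28 at 1 month and 1.37 at 3 months (shared 1.32 ± 0.10, edgeR adjusted p = 2.46e-05). Fabp2 and Acaa1b each overlap another annotated gene. Other familiar PPAR-alpha targets were not called, among them Cyp4a10 (−0.47), Cyp4a14 (−0.53), Pdk4 (0.59), Cpt1a (0.03) and the hormone gene Fgf21 (0.68 ± 0.33, edgeR adjusted p = 0.174). Angptl4 (−0.58), a secreted inhibitor of lipoprotein lipase, was called lower.

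Genes of lipogenesis and lipid storage were called in both directions. Of 22 lipogenic genes 7 were higher and 4 lower, with 3 stable, and the median was 0.25. The stable falls were Acly (−0.52) and Acss2 (−0.46), which make cytosolic acetyl-CoA, and the stable rise was the desaturase Fads2 (0.51). Scd1, the main stearoyl-CoA desaturase of liver, had 3552 to 10302 CPM in HFCF and 1221 to 1597 CPM in chow livers at 1 month, and 10793 to 18174 CPM in HFCF and 589 to 666 CPM in chow livers at 3 months. It was called (3.31 ± 0.26, edgeR adjusted p = 3.37e-05) but was outside the rule with 2.15 at 1 month and 4.47 at 3 months. Fasn, the fatty acid synthase, was not called (−0.83 ± 0.26, edgeR adjusted p = 0.0524). It was called lower in 5 other settings, among them the fit without the 2 libraries that stood apart (−0.80, edgeR adjusted p = 0.039). Of 21 lipid droplet and uptake genes 14 were higher and 1 lower, with a median of 0.81 and with 3 stable members. These were Cidec (1.73), a protein that fuses droplets, Mgll (0.86), which hydrolyses monoglycerides, and Fitm2 (0.63), which acts in droplet formation. Plin2 (0.81), Cd36 (1.74) and Pparg (1.01) rose outside the rule, and Plin5 (−0.63) was called lower. The call of Cidec was lost in 3 of the 12 fits that left out a library, with adjusted p up to 0.0572 in edgeR's test, and that of Plin5 in 6, with adjusted p up to 0.0709.

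Among named genes with at least 5 CPM, the largest stable fall was Cyp2b10, a cytochrome P450 induced through the receptor CAR, at chr7:25897620-25926624. It had 0, 2.47 and 0.341 CPM in HFCF livers and 10.6, 16.4 and 42.2 CPM in chow livers at 1 month. At 3 months it had 1.12, 0.655 and 0.621 CPM in HFCF livers and 16.4, 20.2 and 8.47 CPM in chow livers. The groups were apart at both months (−4.43 ± 0.64, edgeR adjusted p = 0.0025). Its reads may be shared with close paralogs, as may those of Cyp2b9 (3.54), which was called higher outside the rule. Cyp2b9 lost its call in 7 of the 12 fits that left out a library, with effects of 2.35 to 4.28 and an edgeR adjusted p up to 0.51, and in limma-voom. In the list of xenobiotic metabolism to which it belongs, 4 of 21 genes were lower and 1 higher, with a median of −0.20. Cyp2b10 was the only stable member. Both counts are near the shares over all genes, of which 19.1% were called and 5.95% were stable. Cyp17a1 (−2.29 ± 0.62, edgeR adjusted p = 0.0347), a steroid hydroxylase, was stable by the rule but lost its call in 9 of the 12 fits that left out a library. Ddit4 (−1.93 ± 0.52, edgeR adjusted p = 0.0336), an inhibitor of mTORC1, lost it in 8 of 12. Further stable falls were Acmsd (−2.05 ± 0.33), an enzyme of tryptophan breakdown, and Scara5 (−1.89 ± 0.38), a ferritin receptor. Of these, Scara5 had 5.61 to 11.3 CPM in HFCF and 19.9 to 62.3 CPM in chow livers at 1 month, and 0.828 to 2.53 CPM in HFCF and 2.64 to 6.41 CPM in chow livers at 3 months, so its level was lower at 3 months on both diets.

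Tsc22d3, also known as GILZ and induced by glucocorticoids, had 80.8, 87.3 and 119 CPM in HFCF and 423, 274 and 275 CPM in chow livers at 1 month. After 3 months the levels were 56.2, 73.8 and 72.3 CPM in HFCF and 136, 243 and 218 CPM in chow livers. The HFCF libraries lay under every chow library (−1.66 ± 0.18, edgeR adjusted p = 0.000202). Fkbp5, another glucocorticoid-induced gene, was chosen after its values were seen and fell by 1.64 log2 units (SE 0.21, edgeR adjusted p = 0.000811), with −1.09 at 1 month and −2.18 at 3 months. Fkbp5 overlaps another annotated gene.

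Clock genes moved in opposite directions within 1 list. Arntl, which encodes BMAL1, the partner of CLOCK, had 2.52, 3.47 and 4.03 CPM in HFCF and 25.1, 10.9 and 14.7 CPM in chow livers at 1 month. At 3 months it had 4.44, 4.02 and 3.59 CPM in HFCF and 8.3, 15.2 and 15.1 CPM in chow livers. All HFCF libraries lay below all chow libraries (−2.0 ± 0.23, edgeR adjusted p = 0.000314). Clock fell as well (−0.55 ± 0.06, edgeR adjusted p = 0.000142), while Dbp, an output gene that the BMAL1 and CLOCK pair activates, rose (1.42), all 3 being stable. Of the 19 clock genes 6 were higher and 2 lower, with a median of 0.11. The further rises were Per2 (0.54), Per3 (1.13), Nr1d2 (0.53), Tef (0.39) and Bhlhe41 (1.06), of which Per2 and Bhlhe41 had similar effects at both months (0.55 and 0.52 for Per2, 1.21 and 0.92 for Bhlhe41). Fits that left out 1 library had 3 to 7 clock genes higher and 2 to 3 lower. There were 3 higher and 3 lower without the third HFCF library at 3 months, and also without both libraries that stood apart. Per1 (−0.08), Nr1d1 (0.11) and Ciart (−0.08), which also cycle strongly in liver, were not called. Arntl and Dbp each overlap another annotated gene. The hour at which livers were taken is not given in the sources used here, and its part in these values was not tested.

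**Figure D3:**
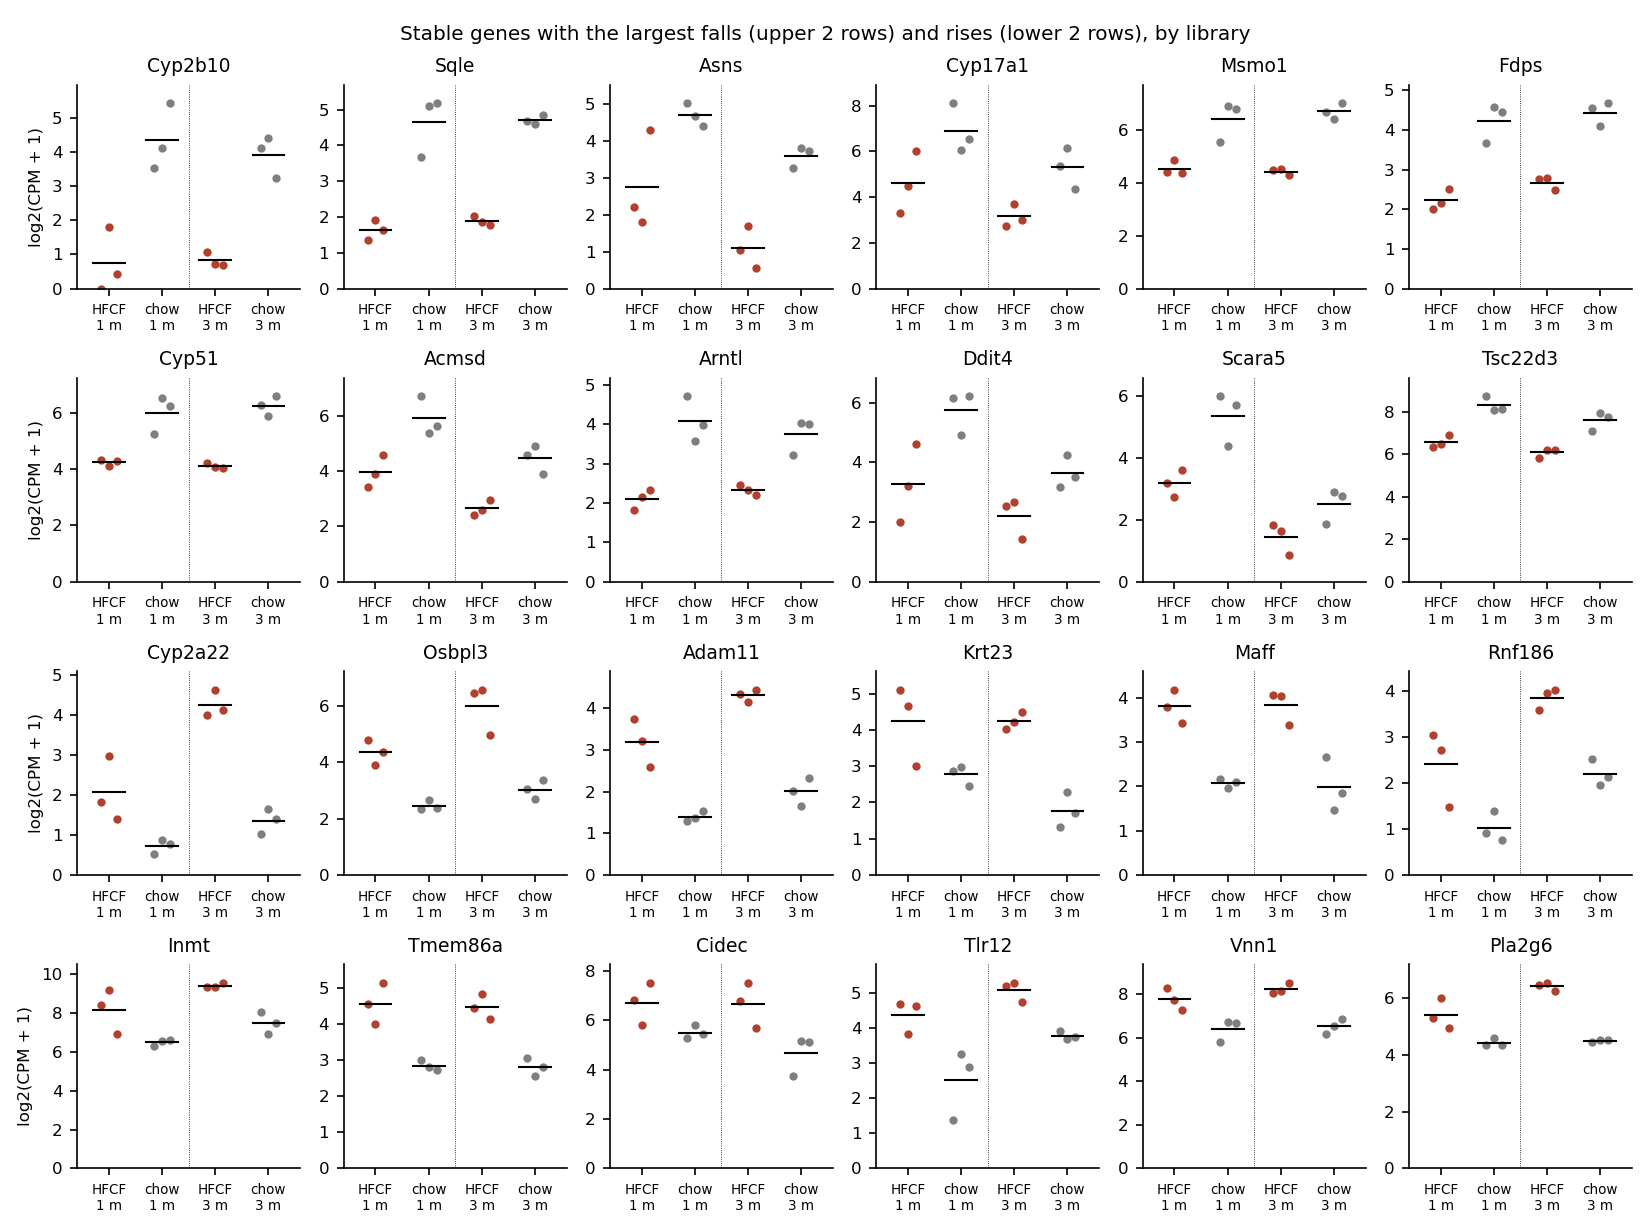
Levels as log2(CPM + 1) in each of the 12 libraries for the 12 largest stable falls (upper 2 rows) and the 12 largest stable rises (lower 2 rows) among named genes with at least 5 CPM, with HFCF in red, chow in grey and a bar at each group mean. In every panel the 3 HFCF points lie on one side of the 3 chow points at both months, as the rule requires, and in the Sqle, Msmo1 and Cyp51 panels the lowest chow point is the first library at 1 month.

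Among named genes with at least 5 CPM, the largest stable rise was Cyp2a22, a cytochrome P450 of a multigene family whose reads may be shared among copies. It had 2.57, 6.81 and 1.64 CPM in HFCF and 0.44, 0.821 and 0.708 CPM in chow livers at 1 month, and 15.1, 23.9 and 16.6 CPM in HFCF and 1.02, 2.16 and 1.65 CPM in chow livers at 3 months. The groups were apart at each month (3.00 ± 0.36, edgeR adjusted p = 0.000492), with 2.46 at 1 month and 3.54 at 3 months. Osbpl3, an oxysterol-binding protein family member that acts at membrane contact sites, had 27.1, 14.1 and 19.6 CPM in HFCF and 4.08, 5.28 and 4.18 CPM in chow livers at 1 month. Levels at 3 months were 86.4, 95.1 and 30.2 CPM in HFCF and 7.27, 5.49 and 9.3 CPM in chow livers, the lowest HFCF value being that of the library that stood apart. The groups did not overlap (2.72 ± 0.32, edgeR adjusted p = 0.000797). Adam11 (chr11:102761439-102780262), a member of the ADAM family without protease activity, had 12.4, 8.35 and 5.05 CPM in HFCF and 1.44, 1.58 and 1.91 CPM in chow livers at 1 month. At 3 months the values were 19.4, 16.6 and 20.8 CPM on HFCF and 3.07, 2.16 and 4.05 CPM on chow. It too separated fully, and its effects were 2.39 at 1 month and 2.62 at 3 months (shared 2.50 ± 0.21, edgeR adjusted p = 4.2e-05).

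Maff, a small MAF transcription factor, rose by 2.04 log2 units at both months. It had 12.9, 17.2 and 9.76 CPM in HFCF and 3.52, 2.88 and 3.26 CPM in chow livers at 1 month, and 15.6, 15.5 and 9.52 CPM in HFCF and 5.33, 1.77 and 2.62 CPM in chow livers at 3 months. All HFCF libraries lay above all chow libraries (2.04 ± 0.25, edgeR adjusted p = 0.000424), and the interval of the difference ran from −1.05 to 1.05. The other large rises among named genes with at least 5 CPM were Krt23 (2.35), a keratin, Rnf186 (2.02), a ubiquitin ligase, Inmt (1.91), a methyltransferase, Tmem86a (1.89), a lysoplasmalogenase, Tlr12 (1.64), a Toll-like receptor, and Pla2g6 (1.53), a phospholipase. Pnldc1 (2.38 ± 0.19, edgeR adjusted p = 2.46e-05), known as a nuclease that trims piRNAs, had 5.32 to 7.16 CPM in HFCF and 0.628 to 1.7 CPM in chow livers at 1 month. At 3 months it had 9.03 to 10.4 CPM in HFCF and 1.56 to 2.32 CPM in chow livers, again without overlap. Sh3bgrl2 (1.03) and Slc23a2 (0.99), a vitamin C transporter, were also among the rises with the smallest p, and Ankrd33b (−0.90), Rdh11 (−0.73), a retinol dehydrogenase, and Dhcr7 among the falls. Pla2g6, Pnldc1, Sh3bgrl2 and Slc23a2 overlap other annotated genes.

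Chaperones of the endoplasmic reticulum were among the stable falls. The list that joins the unfolded protein response with the integrated stress response had 20 tested genes, of which 10 were lower and 1 higher, 5 were stable, and the median was −0.36. In the separate comparisons, 4 of the 20 were called lower and 0 higher at 1 month, where the median was −0.48. At 3 months 2 were called lower and 3 higher, and the median was −0.22. Hspa5 (−0.80), Hsp90b1 (−0.57) and Dnajc3 (−0.37), chaperones and a co-chaperone of the reticulum, were stable falls, and Hsp90b1 had −0.57 at each month. Hyou1 (−0.87), Sdf2l1 (−1.01), Creld2 (−0.90), Manf (−0.99), Calr (−0.63) and Pdia4 (−0.36) fell with larger effects at 1 month, outside the rule. Atf4 (−0.12), Ddit3 (−0.25), Trib3 (0.36) and Atf3 (1.82) were not called. Asns, the asparagine synthetase and an ATF4 target, had 3.63, 2.47 and 18.7 CPM in HFCF and 31.8, 24.9 and 20.5 CPM in chow livers at 1 month. Levels at 3 months were 1.08, 2.23 and 0.483 CPM in HFCF and 8.73, 13.1 and 12.3 CPM in chow livers. The groups were apart, narrowly at 1 month (−2.36 ± 0.52, edgeR adjusted p = 0.0145), and the adjusted p was 0.0536 without the 2 libraries that stood apart. Chac1 (1.67 ± 0.32, edgeR adjusted p = 0.00332), which degrades glutathione and is another ATF4 target, was the stable rise of the list, at 1.4 to 3.82 CPM in HFCF and 0.565 to 0.939 CPM in chow livers at 1 month and 2.21 to 3.27 CPM in HFCF and 0.327 to 1.45 CPM in chow livers at 3 months. Sec61a1 (−0.41), Rpn1 (−0.44) and Stt3a (−0.31), which move proteins into the reticulum or add sugars to them there, were noticed among the stable falls after their values were seen.

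Amino acid and methionine metabolism fell in 17 of 26 tested genes, with 1 higher and a median of −0.79, but only 5 were stable. The stable falls were Gnmt (−1.09), which methylates glycine, Bhmt (−1.12) and Cbs (−0.65), which use homocysteine, the glutaminase Gls2 (−0.97) and Asns. None of the 26 was called at 1 month, where the median was −0.42, and 17 were called lower at 3 months, where it was −1.16. Without the 2 libraries that stood apart 17 were lower and 1 was stable, and without either one alone 1 was stable. Among the urea cycle genes, Asl (−1.67), Arg1 (−1.02), Ass1 (−1.15) and Cps1 (−1.07) fell outside the rule, with 3-month effects of −2.6, −1.51, −1.50 and −1.72 in that order.

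Interferon-stimulated genes rose in 16 of 20 cases, with 1 lower, a median of 0.87 and 6 stable members. In the separate comparisons, 2 of the 20 were called higher at 1 month and 13 at 3 months. At 1 month the list's median in the HFCF libraries was 0.94, 0.37 and −0.06 log2 units relative to the mean of the 6 chow libraries. Leaving out each library in turn gave 12 to 16 higher and 5 to 14 stable rises, with 14 without the third HFCF library at 1 month. With all libraries, the 6 stable members were Ifit2 (1.40), Ifi44 (1.29), Irf7 (0.93), a transcription factor of the response, Bst2 (0.92), which tethers viral particles, Xaf1 (0.86) and Zbp1 (0.82), a sensor of nucleic acids. Bst2 had 96, 64 and 67.9 CPM in HFCF and 45.5, 42.7 and 40.9 CPM in chow livers at 1 month, and 108, 110 and 98.6 CPM in HFCF and 53.2, 43.1 and 59.7 CPM in chow livers at 3 months. It separated at both months (0.92 ± 0.10, edgeR adjusted p = 0.000149). Stat2 (−0.31) was called lower, a call lost in 3 of the 12 fits that left out a library. Of 16 antigen presentation genes 13 were higher, with a median of 0.80, and the 2 stable ones, Tap1 (0.68) and Psmb9 (0.72), serve the class I pathway and overlap each other in the annotation. None of the 16 was called at 1 month, and 12 were called higher at 3 months. The class II genes H2-Aa (1.19), H2-Ab1 (1.21), H2-Eb1 (1.16) and Cd74 (0.91) rose outside the rule, with effects of 0.12 to 0.26 at 1 month and 1.71 to 2.22 at 3 months. Of 19 chemokine and cytokine genes 10 were higher and 3 stable. In the separate comparisons, 1 was called higher at 1 month and 10 at 3 months. Cxcl1 (1.32 ± 0.15, edgeR adjusted p = 0.000142), which attracts neutrophils, had 5.48 to 6.93 CPM in HFCF and 1.88 to 2.99 CPM in chow livers at 1 month, and 11.7 to 13.1 CPM in HFCF and 3.4 to 5.87 CPM in chow livers at 3 months. Ccl3 (2.66) and Tnf (2.74) were stable by the rule at very low levels, Ccl3 having 0.267 to 0.478 CPM in HFCF and 0 to 0.0628 CPM in chow livers at 1 month.

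Markers of immune cells moved with these lists. The summed level of 15 pan-leukocyte genes was 153 to 252 CPM in HFCF and 133 to 160 CPM in chow livers at 1 month, and 287 to 536 CPM in HFCF and 133 to 187 CPM in chow livers at 3 months. Of the 15, 14 were higher, with a median of 1.03, and 3 were stable, namely Fcer1g (0.95), Itgam (1.00) and Itgb2 (1.13). None of the 15 was called at 1 month, and 14 were called higher at 3 months. Leaving out each library in turn gave 0 to 8 stable members. The 12 Kupffer cell markers summed to 767 to 1225 CPM in HFCF and 782 to 846 CPM in chow livers at 1 month, and to 967 to 1158 CPM in HFCF and 736 to 884 CPM in chow livers at 3 months. Of these, 5 were higher and 1 lower, none was stable, and the libraries overlapped at 1 month for Clec4f (0.63) and Cd5l (1.12). Leaving out each library in turn gave 2 to 6 higher Kupffer cell markers and 0 to 5 stable ones, with 2 higher without the second chow library at 3 months, 5 stable without the second HFCF library at 1 month and 3 stable without the third chow library at 1 month. The part of immune cell number in the rises above was not tested. Of 18 lymphocyte markers only 8 were measured well enough to be tested, and Cd79b (1.26) of B cells was the 1 called, a stable rise. Hepatocyte markers fell in 10 of 20 cases with 1 higher, a median of −0.34 and 2 stable falls, Hnf4a (−0.50), a master regulator of hepatocyte genes, and Apoh (−0.36). Their summed level was 129725 to 142101 CPM in HFCF and 147196 to 173471 CPM in chow livers at 1 month, and 102805 to 122552 CPM in HFCF and 142134 to 147284 CPM in chow livers at 3 months, so it moved with the falls above.

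In the cell cycle list 11 of 19 genes were higher and 2 lower, and 5 were stable, with a median of 0.84. At 1 month none was called higher and 2 were called lower, while at 3 months 10 were called higher. The stable members were subunits of the MCM helicase that opens origins of replication, Mcm2 (1.32), Mcm3 (0.84), Mcm5 (1.84) and Mcm6 (1.25), and the replication clamp Pcna (0.32). Looked up after these values were seen, Mcm4 was a further stable rise (0.73), while Mcm7, the remaining subunit, was not called (0.02 ± 0.09, edgeR adjusted p = 0.923). Of genes active in mitosis, Mki67, Top2a and Cdk1 rose with larger effects at 3 months and were not stable. Mki67 had 0.67 at 1 month and 2.77 at 3 months, Top2a 0.73 and 2.71, and Cdk1 0.61 and 2.63 in the same order, while Ccna2 (0.27) and Birc5 (−0.27) were not called. Cdkn1a, which encodes the cell cycle inhibitor p21, fell (−2.49) with −4.21 at 1 month and −0.77 at 3 months. Rrm2, a ribonucleotide reductase subunit that serves DNA replication, was also called lower (−0.90, edgeR adjusted p = 0.0042), outside the stable rule. Its call was kept in all 12 fits that left out a library.

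**Figure D4:**
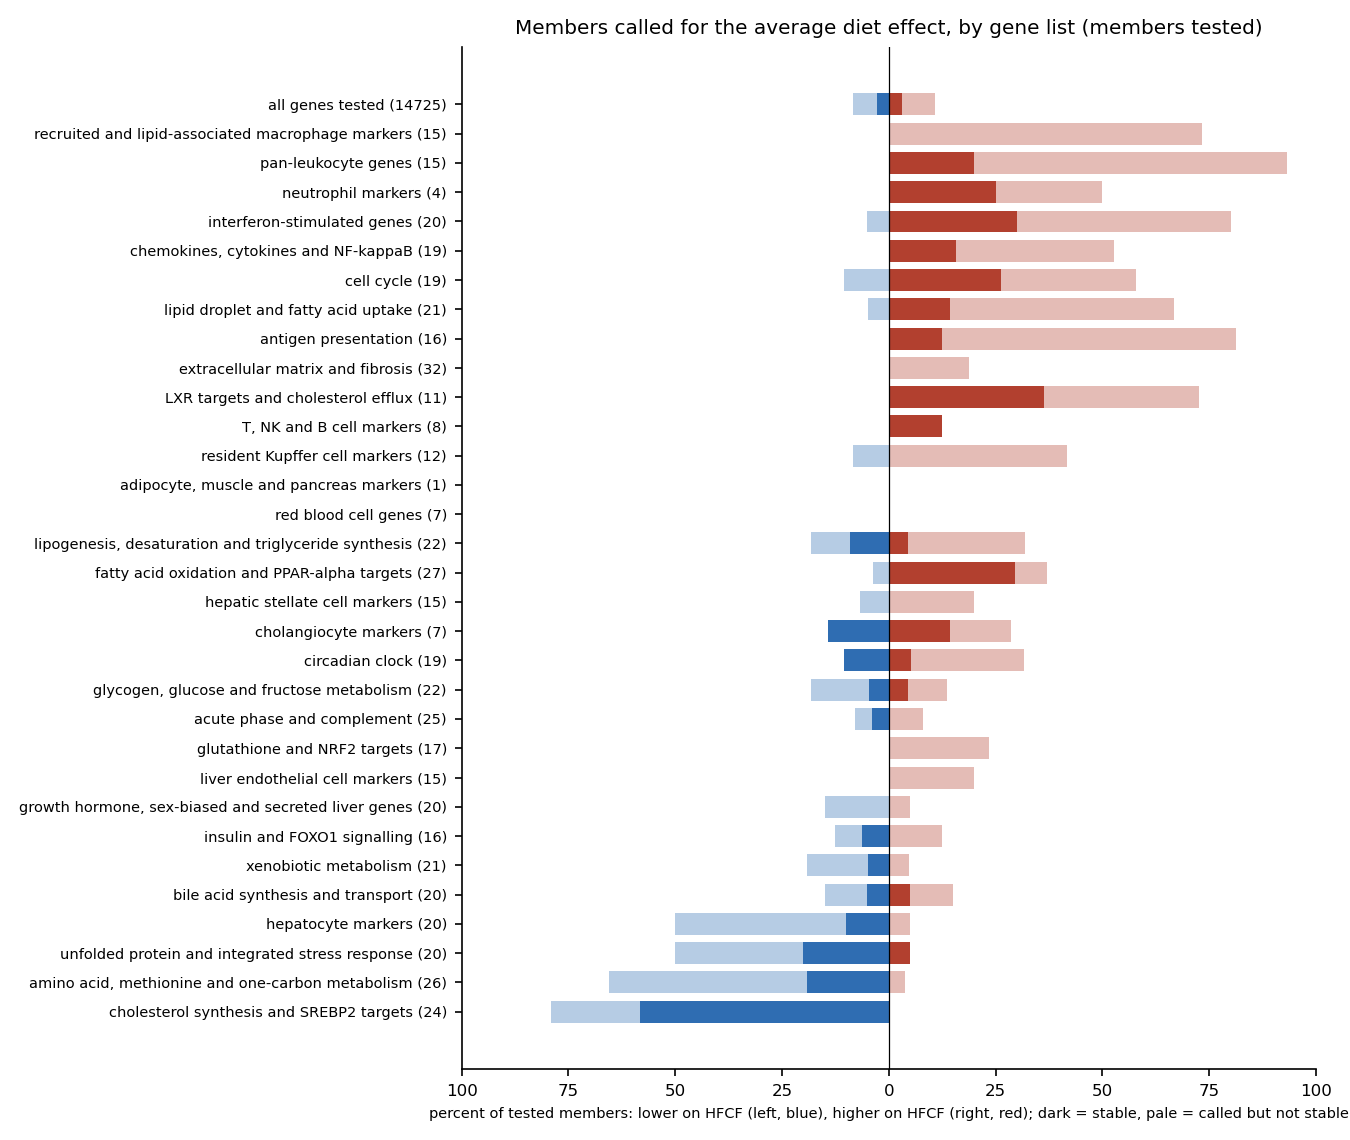
Percent of the tested members of each list called higher (to the right) or lower (to the left) for the shared effect, dark where the member was stable and pale where it was not. Cholesterol synthesis has the largest dark share, 14 of 24, while macrophage, extracellular matrix and NRF2 lists have no dark part. Over all genes tested the dark share is 5.95%.

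Several lists had calls but no stable member, beside 19.1% of all genes called and 5.95% stable. The 15 markers of recruited and lipid-associated macrophages had 11 higher, a median of 0.36 at 1 month and 3.03 at 3 months, and none stable, with Trem2 at 1.23 to 2.52 CPM in HFCF and 0.528 to 0.992 CPM in chow livers at 1 month and at 1.45 to 12 CPM in HFCF and 0.588 to 1.4 CPM in chow livers at 3 months. Extracellular matrix genes had 6 of 32 higher and a median of −0.18 at 1 month and 1.42 at 3 months. Col1a1 was not called (1.18 ± 0.71, edgeR adjusted p = 0.283), and its HFCF libraries at 3 months had 30.1, 34.2 and 4.21 CPM, against 5.66, 1.7 and 2.4 CPM in chow livers. It stayed without a call in all 12 fits that left out 1 library. With both libraries that stood apart left out, Col1a1 was called higher (2.31, edgeR adjusted p = 0.00116). Without the 2 libraries that stood apart 24 of the 32 were higher and none was stable, and leaving out each library in turn gave 2 to 15 higher. Of 17 genes of glutathione and NRF2 response 4 were higher, of 20 growth hormone and sex-biased genes 1 was higher and 3 lower, of 15 stellate cell markers 3 were higher and 1 lower, and of 15 endothelial markers 3 were higher. None of these was stable, which in lists this short is near the share over all genes. None of the 7 red blood cell genes was called. The 1 tested gene of 15 adipocyte, muscle and pancreas markers was not called.

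The remaining lists had calls in 1 or both directions, beside 19.1% of all genes called. Bile acid genes had 3 of 20 higher and 3 lower, with Baat (−0.39), which conjugates bile acids, and the uptake carrier Slco1b2 (0.62) stable, and Cyp7a1, which begins the classical route from cholesterol to bile acids, not called (−0.43 ± 0.26, edgeR adjusted p = 0.276). Glucose and glycogen genes had 3 of 22 higher and 4 lower, with Tkfc (−1.09), the triokinase of fructose breakdown, and Ugp2 (0.60), which makes UDP-glucose, stable. Ppp1r3g (4.52), a glycogen-targeting phosphatase subunit, rose outside the rule with 6.09 at 1 month and 2.96 at 3 months. In insulin and FOXO1 signalling 2 of 16 were higher and 2 lower, with Tsc22d3 the stable one. Acute phase and complement genes had 2 of 25 higher and 2 lower, and Fga (−0.46), the fibrinogen alpha chain, was stable by the rule but lost its call in 7 of the 12 fits that left out a library (edgeR adjusted p up to 0.0744). Of 7 cholangiocyte markers 2 were higher and 1 lower, with Krt23 and Sox9 (−0.93) stable in opposite directions. Of 4 tested neutrophil markers 2 were higher, and S100a9 (1.28) was stable.

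Without the 2 libraries that stood apart, the stable counts of the lists described above were 4 for LXR targets, 6 for PPAR-alpha targets, 6 for the cell cycle, 3 for chemokines and cytokines and 3 for pan-leukocyte genes, all higher. Interferon-stimulated genes then had 4 stable rises and 1 stable fall, lipid droplet genes 4 and 1, and the stress response list 1 stable rise and 3 stable falls. Hepatocyte markers had 3 stable falls. Leaving out each library in turn gave 2 to 9 stable falls in the stress response list, 1 to 7 in amino acid metabolism and 1 to 5 among hepatocyte markers, 2 to 6 stable rises among lipid droplet genes, 2 to 5 in antigen presentation, 2 to 5 among chemokines and cytokines and 2 to 5 in the cell cycle.

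**Figure D5:**
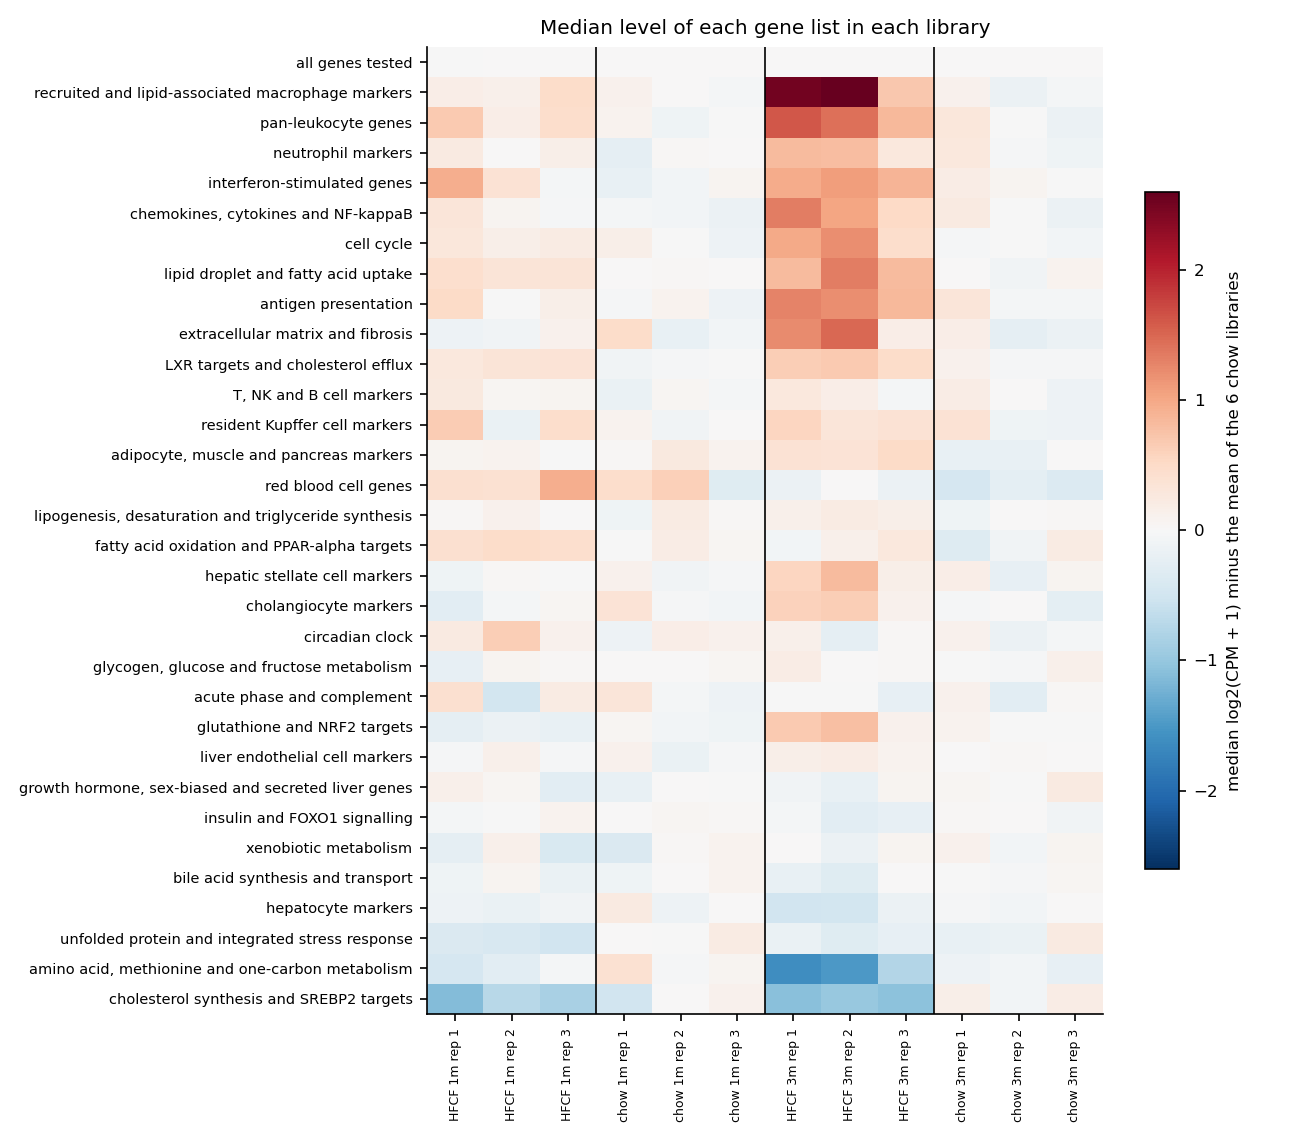
Heat map of the median over each list of log2(CPM + 1) minus the mean of the 6 chow libraries, with lists as rows and the 12 libraries as columns. The sterol row lies at −1.12 to −0.72 in the 6 HFCF libraries and at −0.50 in the first chow library at 1 month, and the row of recruited macrophage markers has 2.51, 2.58 and 0.70 in the HFCF libraries at 3 months.

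Further stable genes were noticed after their values were seen and are given as values. The haem synthesis genes Alas1 (1.10 ± 0.13, edgeR adjusted p = 0.000149) and Alad (0.39 ± 0.08, edgeR adjusted p = 0.00388) rose. Alas1, the rate-limiting enzyme, had 968, 1281 and 1031 CPM in HFCF and 510, 433 and 669 CPM in chow livers at 1 month, and 797, 950 and 904 CPM in HFCF and 430, 423 and 314 CPM in chow livers at 3 months, without overlap. Polr1a, the largest subunit of RNA polymerase I, fell (−0.50), as did Pdcd11 (−0.41), Heatr1 (−0.32) and Utp20 (−0.26), which act in ribosome production. Ripk3 (1.31) and Mlkl (0.79), which carry out necroptosis, rose, as did Casp8 (0.47) and Fas (0.48). These 8 were picked by their values, and no list of either process was counted. Tent5c, a poly(A) polymerase, fell (−1.29 ± 0.12, edgeR adjusted p = 4.2e-05). It had 22.3, 21.3 and 22.2 CPM in HFCF and 40.4, 50.5 and 36.3 CPM in chow livers at 1 month, and 7.39, 7.99 and 9.1 CPM in HFCF and 20.7, 22 and 32.5 CPM in chow livers at 3 months, so that it was lower with time on both diets as well.

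The month effect, whose size the rule did not use, was read in the stable genes. Averaged over diets, 165 of the 876 (18.8%) differed between 3 months and 1 month in edgeR's test, beside 9.68% of all genes. Of the stable genes that were higher on HFCF, 87 were higher and 2 lower at 3 months, and of those that were lower on HFCF, 70 were lower and 6 higher, where 4.72% of all genes were higher and 4.96% lower. The medians of the month effect were 0.21 for stable rises and −0.13 for stable falls, beside 0.02 for all genes. In chow livers alone the medians were 0.15 and −0.11, beside 0.01, and none of the 876 was called there, where 1 of all genes was (0.00679%). The month effect and the diet effect come from the same 12 libraries and the same estimate of each gene's spread. The rule asks for a call and for libraries without overlap, which favours genes of small spread. The share called for month was not set against genes of like spread or level, so it is a description. The stable genes with the smallest p for month included Abca3 (−0.34), Arsa (0.71) and Sfxn1 (−0.40), given here with their diet effects. Of the stable genes 94.2% were protein coding, beside 86.7% of those tested, 39.6% overlapped another annotated gene, beside 45.1%, and the median level over all libraries was 19.1 CPM for rises and 25.5 CPM for falls, beside 11.6 CPM.

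At the edge of the rule, Emilin2 was just inside with 1.18 at 1 month and 0.59 at 3 months, as was Dnmt1 with 0.32 and 0.63 in the same order. Farsa with −0.44 and −0.22 and the sterol gene Lss with −0.63 and −1.26 were just outside. Of the 2809 genes called for the shared effect, 1108 had a 3-month effect over 2 times the 1-month effect, 694 higher and 414 lower. A 1-month effect over 2 times the 3-month effect was found in 176, opposite signs in 63, and effects of similar size with overlapping libraries in 586. The largest shared effects outside the rule belonged to Ppp1r3g, Cfd (4.39), the protease adipsin, Cidea (4.08), a lipid droplet protein, and Ly6d (3.80) among the rises, and to Tg (−2.98, a call lost in 4 of the 12 fits that left out a library), Serpina1e (−2.62), Cux2 (−2.59) and Cdkn1a among the falls. Cidea had 0.205 to 1.85 CPM in HFCF and 0 to 0.88 CPM in chow livers at 1 month, and 9.86 to 40.3 CPM in HFCF and 0.131 to 0.3 CPM in chow livers at 3 months. Its libraries overlapped at 1 month, its call was lost without the first HFCF library at 1 month (edgeR adjusted p = 0.128), and Serpina1e belongs to a family of close copies among which reads may be split.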

How the data were processed

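RNA of 12 livers in 4 groups of 3 was sequenced from stranded TruSeq libraries made after Ribo-Zero Gold depletion of ribosomal RNA, per the labels' protocols. The authors deposited 1 table whose raw counts give the reads of each gene on mm10, the build named in the submitters' processing notes. Which aligner and counter made it, and whether strand was used, is not given in the sources used here. FPKM values and gene lengths in bases (Total BPs, per the file headers) were also deposited by the authors and were not used for any result. Shrunken log2 ratios and a score that rises as the adjusted p falls were both deposited by the authors. They served only to count genes under an adjusted p of 0.05, a threshold set here. 1 empty line was left out, and 15306 of 16035 gene identifiers matched GENCODE M21 of the same build.

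Counts were analysed with edgeR 4.0.16 and limma 3.58.1 in R 4.3.3, with DESeq2 1.42.0 as an alternative, and Python 3.11.15, pandas 2.3.3 and matplotlib 3.10.9 for summaries and figures. filterByExpr removed 1310 genes and left 14725. Robust quasi-likelihood estimation, 4 group means and 12 libraries in 1 model, with TMM factors of 0.921 to 1.14 and a common biological coefficient of variation of 0.153, gave each comparison, and p-values were Benjamini-Hochberg adjusted over all genes tested with a threshold of 0.05. The code was tested on simulated counts. Replicates of a group differed by more than sampling noise (chi-square over genes tested, 12.1 to 59.9 for each gene), and no batch is given in the labels.

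Errors after ± are standard errors of log2 differences, taken from the size of the difference and edgeR's F statistic and so approximate for differences near 0, with n = 3 libraries per group, and values in brackets after a gene are shared log2 effects. Genes were named by rule. The rule took the 12 largest stable rises and falls with at least 5 CPM, the 5 stable rises and 5 stable falls of smallest p, and the called list members with the smallest p or against their list. It also took the genes at the edge of the ratio rule, the 4 largest effects in each direction outside the stable set, those with the smallest p for month, and a few liver genes. Other list members are given by value, and predicted genes are counted and not named. The members and the 31 gene lists were chosen with earlier results of these data known. A few list members enter the counts and medians but are not reported here by name.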

Additional observations from a re-analysis of the deposited data

Results flagged for a closer look

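For 2 of the genes that edgeR called for the difference between the months, the shared effect was called as well, though neither gene met the stable rule. Nes, which encodes the intermediate filament protein nestin, had 1.57, 1.27 and 1.84 CPM in HFCF and 1.88, 1.94 and 2.05 CPM in chow livers at 1 month. At 3 months Nes had 6.55, 7.68 and 5.52 CPM in HFCF and 2.16, 1.96 and 2.62 CPM in chow livers. The log2 effect was −0.33 at 1 month and 1.56 at 3 months, a difference of 1.89 ± 0.30 (edgeR adjusted p = 0.0464). Peg3, an imprinted zinc finger gene, had 23.2, 17.4 and 30.6 CPM in HFCF and 23.4, 26.8 and 24.4 CPM in chow livers at 1 month, and 12.3, 11.3 and 11.8 CPM in HFCF and 31.7, 42.8 and 38.8 CPM in chow livers at 3 months. Its effect was −0.07 at 1 month and −1.68 at 3 months, a difference of −1.61 ± 0.24 (edgeR adjusted p = 0.0419). In both genes the HFCF and chow libraries were apart at 3 months. The calls for the difference depended on single libraries. When each library in turn was left out, Nes was called in 2 and Peg3 in 3 of the 12 fits, with edgeR adjusted p up to 0.148 for each, and in 7 of the 12 fits no gene was called for the difference. Scaling by total library size likewise gave 0 calls.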

How the results depend on the processing

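The shared effect called 2809 genes, with 1916 to 3527 when each library in turn was left out and 2365 in an additive model of month and diet, and the 876 stable genes became 765 to 1207, of which 663 to 785 were in the original set. No setting reversed the sign of a named gene that was called with all libraries or in that setting. Of 170 named genes called, 144 kept their call whichever library was left out. Stable genes numbered 563 at a ratio of at least 0.67, 1462 where libraries may overlap and 169 with a shared effect of at least 1. A call at each month in the same direction, without the other parts of the rule, gave 178 genes, of which 169 were stable. Scaling by total library size moved the median of all genes by 0.081 (shared) and 0.127 (3 months), raised the share of higher calls to 76.3% (against 56.6%) for the shared effect, 72.6% (53.1%) for stable genes and 81.4% (60.6%) at 3 months, and gave 0 calls for the difference and 3141 for month, 88.9% of them higher (48.8%). DESeq2's Wald test called 641 genes at 1 month and 367 for the difference, and limma-voom 3 for the difference.

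Leaving out 1 library gave 65 to 396 calls at 1 month, 1255 to 3631 at 3 months, 0 to 878 for the difference and 617 to 2454 for month. The count at 1 month was 65 without chow replicate 3 and 73 without chow replicate 1 of that month, 73 without HFCF replicate 1 of that month and 186 without HFCF replicate 1 at 3 months. At 3 months it was 1478 without HFCF replicate 1, 1255 without HFCF replicate 2, 1382 without chow replicate 2 and 1776 without chow replicate 3 of that month. Without both libraries that stood apart there were 149 calls at 1 month, 635 for the difference, 13 of them stable genes, and 2550 for month, and 672 stable genes were shared. The causes of these shifts were not tested.

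Same-numbered libraries of different groups had correlations of −0.188 to 0.191, so the numbers do not pair them, and with the replicate block 48 genes were called for the difference and 830 were stable. Libraries of 13733485 to 20277572 counts limit what can be said of genes near 0 CPM, such as Ccl3 and Tnf.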
